A study of Mus musculus with 33 samples.

Results

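The genes described here are 9 genes of resting and lymphoid homing T cells, namely Tcf7, Lef1, Bach2, Foxp1, Satb1, Klf2, Ccr7, S1pr1 and Il6ra. They were taken by symbol from the 31054 genes of the count tables, and 9 of 9 had reads in 33 of 33 libraries and were tested. Bulk RNA-Seq was done on sorted cells of DEREG mice, which carry the diphtheria toxin receptor and eGFP under the Foxp3 promoter on a C57BL/6 background, so that Tregs could be sorted as CD4+GFP+ cells. The 11 groups had 3 libraries each. Naive mice had no transplantation and no treatment and gave, from the spleen (SP), CD4+ T cells, CD45+CD4- cells and Tregs, and, from the renal draining lymph node (DLN), Tregs. Tolerant mice were taken at day 100 after a graft of 4000 IEQ of porcine neonatal islet cell clusters under short treatment. The treatment was MR1, an antibody to CD154 (repeated doses of 500 µg per mouse), and CTLA4-Fc (a single dose of 500 µg per mouse). Tolerant mice gave splenic CD4+ T cells and CD45+CD4- cells, CD127-/lo and CD127hi Tregs of spleen and DLN, and Tregs of the graft.

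According to the methods, a library was a pool of several mice, tolerant mice were male and DLN/naive Tregs came from female mice, so mouse sex and treatment cannot be told apart where DLN/naive Tregs are compared. Xist, which is transcribed from the inactive X chromosome, was at 405, 459 and 1.24 CPM in the 3 DLN/naive libraries, so that replicate 3 goes against the stated sex. The naive mice stated are too few to fill a separate pool for each library, so libraries of 1 group may share mice. Because the labels do not tie libraries to separate mice, p-values measure only the spread between these libraries. CD127 was also the marker by which Tregs were divided, so its own gene, Il7r, was chosen by the sort. Its level was 1234, 1082 and 1198 CPM in SP/CD127hi Tregs and 270, 303 and 360 CPM in SP/CD127-/lo Tregs. Il7r had an adjusted p under 0.05 between these splenic groups, but not between DLN/CD127hi and DLN/CD127-/lo Tregs (edgeR quasi-likelihood test).

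A resting T cell circulates between blood, spleen and lymph nodes. Ccr7 lets it enter the T cell zone, S1pr1 lets it leave along the gradient of sphingosine 1-phosphate, and Klf2 switches on S1pr1. Tcf7 and Lef1 encode the TCF-1 and LEF-1 factors of the Wnt pathway, Bach2 represses effector genes, Foxp1 keeps naive T cells quiescent, Satb1 organizes chromatin and is repressed by Foxp3 in Tregs, and Il6ra is the ligand-binding chain of the IL-6 receptor. On activation these genes are in large part switched off in T cells. Tregs exist in resting, or central, and effector states, and the same genes are used to tell them apart.

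The genes lie on GRCm38 (mm10) as follows. Tcf7 (ENSMUSG00000000782) is on chromosome 11, minus strand, from 52252371 to 52283014. Ccr7 (ENSMUSG00000037944) is on the same chromosome from 99144196 to 99155077. Chromosome 3 holds Il6ra (ENSMUSG00000027947, 89864059 to 89913196), S1pr1 (ENSMUSG00000045092, 115710433 to 115715072) and Lef1 (ENSMUSG00000027985, 131110471 to 131224356). Bach2 (ENSMUSG00000040270) spans chromosome 4 from 32238804 to 32586108, Foxp1 (ENSMUSG00000030067) chromosome 6 from 98925338 to 99522721, Klf2 (ENSMUSG00000055148) chromosome 8 from 72319033 to 72321656, and Satb1 (ENSMUSG00000023927) chromosome 17 from 51736187 to 51833290. Exon bases of Lef1, Bach2, Foxp1, Satb1 and Il6ra are shared with other annotated genes, such as Gm43352, Bach2os and Gm42809 (1208, 537, 435, 284 and 242 bases). The counts used do not separate the strands, so reads there cannot be assigned to 1 gene. Ambiguous reads were counted apart from the genes, so such reads may be missing from the levels of these members. For Satb1, 0 of the sharing genes were in the counts.

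The counts on genes were 2550698 to 4615283 in the 24 spleen and graft libraries (NextSeq 500) and 844039 to 1935323 in the 9 DLN libraries (MiSeq), so that 3 counts correspond to 0.65 to 1.176 CPM and 1.55 to 3.554 CPM. Levels are given in CPM, which are counts divided by the total on genes after TMM scaling. Foxp3 was at most 8.2 CPM in Foxp3- cells. The 5 Treg markers used were Foxp3, Il2ra, Ctla4, Ikzf2 and Tnfrsf18. Their sum was 523 to 1814 CPM in SP/naive CD4+ T cells and 733 to 976 CPM in SP/tolerant CD4+ T cells. In SP/naive Tregs it was 5059 to 7515 CPM. The defining markers of T cells (Cd3e, Cd3d, Cd3g, Cd4, Lck and Trac) summed to 3875 to 10588 CPM in the T cell libraries, and to 862 to 2552 CPM in CD45+CD4- cells, where 5 B cell markers reached 2299 to 4961 CPM. One graft library stood apart. Graft replicate 2 was the lowest of the 3 for 9 of 9 genes, with a sum of 5 kidney epithelial markers of 890 CPM beside 117 and 15.8 CPM in replicates 1 and 3. Its T cell markers summed to 8875 CPM, beside 6540 and 5963 CPM in replicates 1 and 3. Its Treg markers summed to 16668 CPM, beside 8919 and 9626 CPM. SP/tolerant CD45+CD4- replicate 2 was likewise lowest for 9 of 9 genes, and SP/CD127-/lo replicate 1 for 8 of 9.

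Satb1 showed the clearest separation of Tregs from CD4+ T cells. In SP/naive CD4+ T cells its level was 1002, 1870 and 1254 CPM, and in SP/tolerant CD4+ T cells 1030, 882 and 800 CPM. SP/naive Tregs had 413, 394 and 294 CPM, SP/CD127-/lo Tregs 185, 193 and 328 CPM, SP/CD127hi Tregs 207, 253 and 363 CPM and graft Tregs 346, 148 and 206 CPM. Every Treg library of spleen and graft was below every CD4+ T cell library. The DLN subsets stayed in the same range, at 280 ± 102, 258 ± 60.9 and 271 ± 66.0 CPM (SD, n = 3) in naive, CD127-/lo and CD127hi Tregs, while CD45+CD4- cells were at 796 ± 177 CPM in naive and 694 ± 113 CPM in tolerant mice. Between neighbours in the order of the 11 means, the groups did not overlap at 1 step, from SP/tolerant CD45+CD4- cells to SP/naive Tregs.

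Lef1, too, was highest in CD4+ T cells. Its level was 539, 757 and 517 CPM in SP/naive CD4+ T cells and 486, 337 and 402 CPM in SP/tolerant CD4+ T cells. The groups of SP/naive Tregs (121, 112 and 125 CPM), SP/CD127-/lo Tregs (127, 143 and 118 CPM) and SP/CD127hi Tregs (131, 75.6 and 196 CPM) lay together, and graft Tregs had 91.0, 63.9 and 89.1 CPM. The levels of CD4+ T cells were above those of all other groups, with SP/naive CD4+ above SP/tolerant CD4+ and this in turn above SP/naive CD45+CD4- cells (130, 238 and 194 CPM) without overlap. SP/tolerant CD45+CD4- cells had 73.2, 54.4 and 115 CPM. In the DLN, Lef1 was at 130 ± 87.9, 103 ± 17.5 and 66.7 ± 34.9 CPM in naive, CD127-/lo and CD127hi Tregs, the last being the lowest of the 11 means.

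Bach2, in contrast, was highest in CD45+CD4- cells, with 247, 603 and 405 CPM in naive and 382, 357 and 394 CPM in tolerant mice. It was at 353, 280 and 315 CPM in SP/naive CD4+ T cells and at 166, 212 and 132 CPM in SP/tolerant CD4+ T cells. SP/naive Tregs had 324, 237 and 127 CPM, which overlapped both CD4+ groups. Splenic and graft Tregs of tolerant mice had lower means, with 52.0, 169 and 60.7 CPM in SP/CD127-/lo, 117, 128 and 122 CPM in SP/CD127hi and 75.6, 42.0 and 69.4 CPM in graft Tregs. In the DLN the values were 108, 186 and 132 CPM in naive, 104, 108 and 96.5 CPM in CD127-/lo and 91.5, 43.3 and 39.4 CPM in CD127hi Tregs, so that DLN/CD127hi Tregs lay below both other DLN groups without overlap.

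The promoters of these 3 genes are shown because they were the members past the threshold in the comparisons that follow. They are taken from RefSeq on GRCm38.p6 and cover the 250 bases before a start as RefSeq places it, written 5′ to 3′ on the strand of the gene. The window of Satb1 (chr17:51833291-51833540, minus strand) is the most upstream of its 5 and overlaps an exon of Gm6934 on the other strand. That of Lef1 (chr3:131110047-131110296, plus strand) is the most upstream of 4. It ends before the start of Lef1 in the GENCODE annotation, which gave the gene positions, and for 0 of the 4 Lef1 windows were the first bases after the RefSeq start found in a GENCODE transcript of Lef1, against 5 of 5 for Satb1 and 1 of 1 for Bach2, so this start was not matched to a GENCODE transcript. The window of Bach2 (chr4:32417185-32417434, plus strand) lies before a start inside the gene. Capitals mark matches, on either strand, to a KLF motif (GGGTGTG) or an ETS motif (CCGGAAG).
Satb1: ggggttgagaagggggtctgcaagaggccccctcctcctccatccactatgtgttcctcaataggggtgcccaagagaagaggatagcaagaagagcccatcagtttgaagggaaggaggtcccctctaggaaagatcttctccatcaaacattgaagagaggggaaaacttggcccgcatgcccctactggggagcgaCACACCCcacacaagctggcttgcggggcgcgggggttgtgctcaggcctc
Lef1: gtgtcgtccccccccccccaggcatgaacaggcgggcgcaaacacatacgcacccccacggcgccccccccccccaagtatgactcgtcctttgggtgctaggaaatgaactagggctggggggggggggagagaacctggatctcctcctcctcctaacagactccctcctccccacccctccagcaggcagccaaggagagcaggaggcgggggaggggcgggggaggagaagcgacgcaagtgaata
Bach2: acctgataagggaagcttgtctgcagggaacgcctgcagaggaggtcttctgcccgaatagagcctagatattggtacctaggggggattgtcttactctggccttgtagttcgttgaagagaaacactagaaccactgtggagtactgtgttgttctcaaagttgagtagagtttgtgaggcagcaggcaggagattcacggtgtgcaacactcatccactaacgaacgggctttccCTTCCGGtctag
Satb1 had 1 KLF match, 51 bases before the start, Bach2 had 1 ETS match, 12 bases before it, and Lef1 had none. Over the 17 windows of the 7 members in the table, the KLF motif was in 2 and the ETS motif in 2, beside 6.93% and 6.91% of all 32851 windows. FOXO (GTAAACA), TCF/LEF (CTTTGAT) and BACH/AP-1 (TGAGTCA) motifs were in 0 of 17 windows, beside 3.17%, 3.21% and 4.46% of all windows. A match of letters is a description and not a binding site.

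Tcf7 was the member with the highest level per exon length (median of the group means 95.1 CPM per kb). It was at 608, 643 and 665 CPM in SP/naive CD4+ T cells and at 608, 614 and 569 CPM in SP/tolerant CD4+ T cells, which overlapped. SP/naive Tregs had 165, 290 and 206 CPM, SP/CD127-/lo Tregs 207, 249 and 329 CPM, SP/CD127hi Tregs 271, 249 and 396 CPM and graft Tregs 248, 123 and 204 CPM. All 12 Treg libraries of spleen and graft were below the 6 CD4+ libraries. CD45+CD4- cells had 322, 359 and 427 CPM in naive and 291, 133 and 325 CPM in tolerant mice. DLN/naive Tregs varied widely, from 34.8 to 231 CPM, DLN/CD127-/lo Tregs had the lowest mean of the 11 groups, 105 ± 28.6 CPM, and DLN/CD127hi Tregs had 224 ± 129 CPM.

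Foxp1 and Klf2 did not set CD4+ T cells apart from the other groups. Foxp1 was highest in SP/naive CD45+CD4- cells (986 ± 165 CPM) and lowest in SP/CD127-/lo Tregs (287 ± 63.1 CPM). It was at 859 ± 122 and 588 ± 45.6 CPM in CD4+ T cells of naive and tolerant mice, at 552 ± 98.7, 453 ± 29.5 and 338 ± 131 CPM in SP/naive, SP/CD127hi and graft Tregs, and the levels of CD4+ T cells of naive mice were above those of tolerant mice without overlap. Klf2 ranged from 412 ± 298 CPM in SP/naive CD45+CD4- cells to 52.4 ± 41.6 CPM in DLN/CD127-/lo Tregs, where replicate 3 had 5.72 CPM. In the spleen it was at 191, 128 and 268 CPM on average in naive, CD127-/lo and CD127hi Tregs, and at 210 and 175 CPM in CD4+ T cells of naive and tolerant mice.

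Of the receptors of homing and egress, Ccr7 was high in CD4+ T cells. It was at 276, 167 and 361 CPM in SP/naive CD4+ T cells and at 368, 218 and 380 CPM in SP/tolerant CD4+ T cells. SP/naive Tregs had 57.0, 84.9 and 66.4 CPM, SP/CD127-/lo Tregs 77.1, 99.9 and 89.7 CPM, SP/CD127hi Tregs 104, 61.5 and 53.0 CPM and graft Tregs 67.4, 17.8 and 146 CPM. No Treg library of spleen or graft reached the lowest CD4+ library. In the DLN Ccr7 was at 57.1 ± 71.7, 61.9 ± 75.5 and 73.6 ± 37.1 CPM in naive, CD127-/lo and CD127hi Tregs. S1pr1 ranged from 404 ± 89.2 CPM in SP/naive CD4+ T cells to 137 ± 39.2 CPM in DLN/CD127-/lo Tregs, and 10 of 10 neighbours in the order of its means overlapped. SP/CD127hi Tregs had 296 ± 127 CPM of S1pr1, while SP/naive, SP/CD127-/lo and graft Tregs had means of 175, 184 and 174 CPM.

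Il6ra differed from the other members in that its highest mean was in a Treg subset. SP/CD127hi Tregs had 188, 181 and 287 CPM, SP/naive Tregs 142, 278 and 137 CPM and SP/naive CD4+ T cells 146, 286 and 105 CPM. SP/CD127-/lo Tregs were lowest of the 11 groups, with 56.8, 96.1 and 106 CPM, and graft Tregs had 82.1, 22.2 and 160 CPM. The neighbours in the order of the 11 means overlapped in 10 of 10 steps. In the plot of levels by library, Satb1, Lef1, Tcf7 and Ccr7 stand out for the gap between CD4+ T cells and Tregs.

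**Figure D1:**
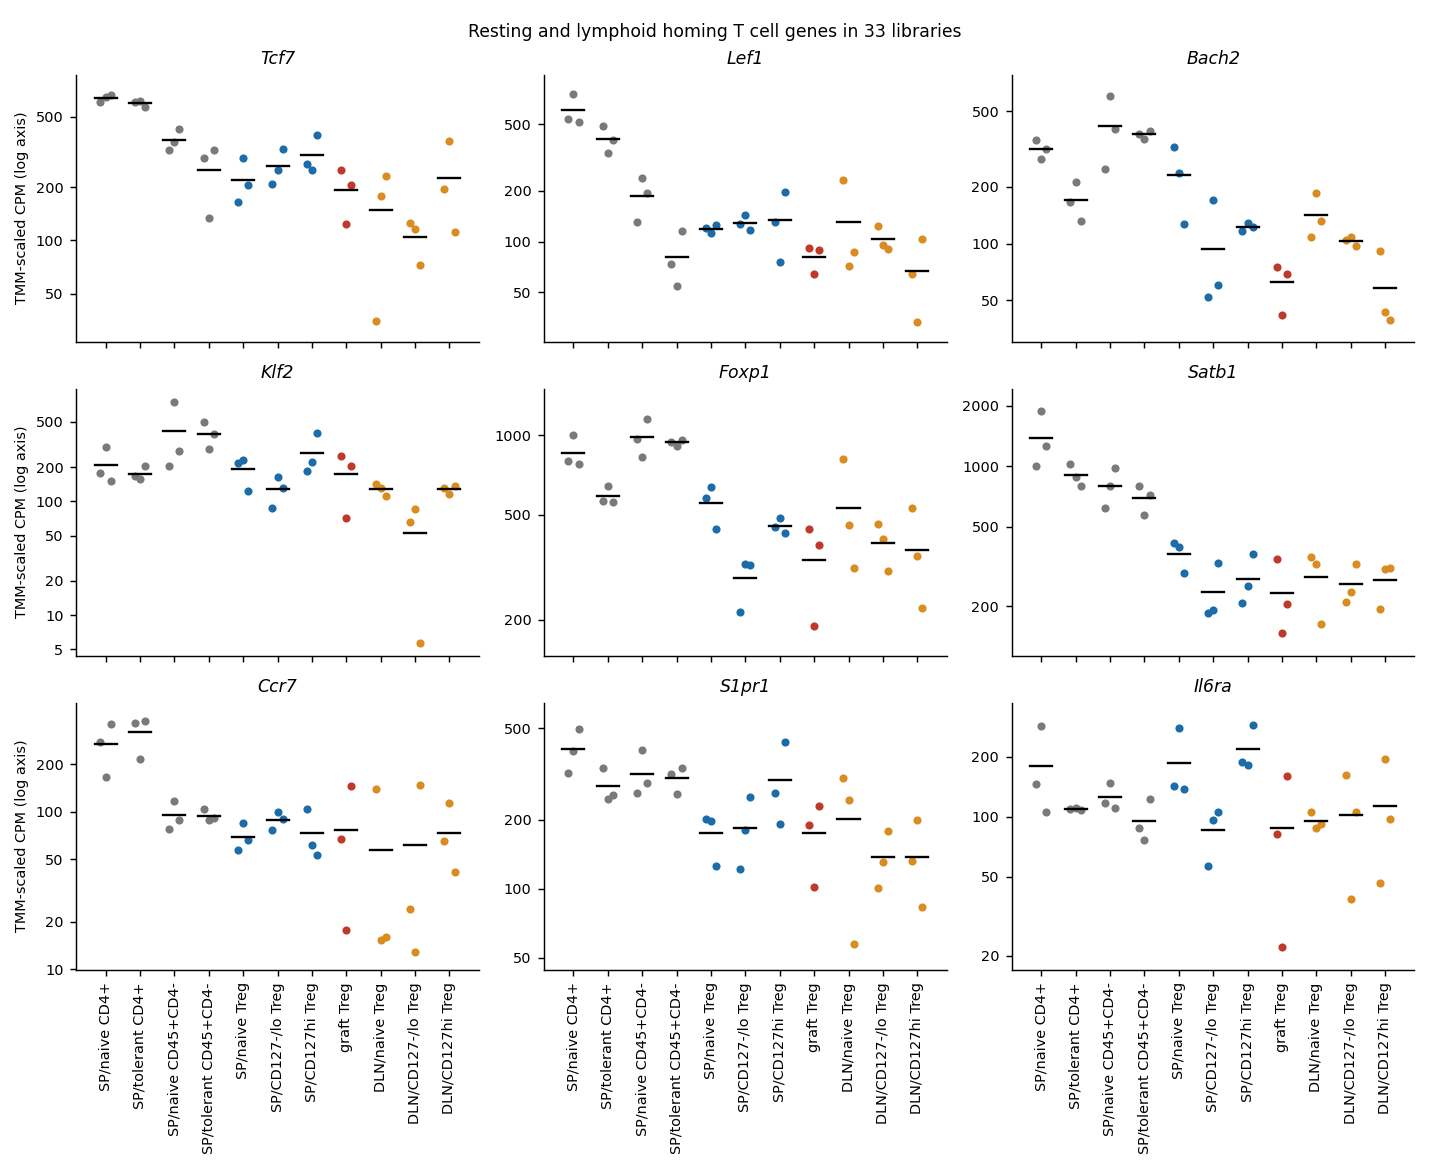
CPM of the 9 genes in each of 33 libraries on log axes, by group, with the mean as a bar; grey points are Foxp3- cells, blue splenic Tregs, red graft Tregs and orange DLN Tregs. Satb1, Lef1, Tcf7 and Ccr7 were higher in CD4+ T cells than in splenic and graft Tregs, while Il6ra was highest in SP/CD127hi Tregs (mean 219 CPM).

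The first question was how Tregs differ from CD4+ T cells. In SP/naive Tregs, Satb1 and Lef1 were lower than in SP/naive CD4+ T cells, 2 of 9 members, beside 0.264% of the 25347 genes tested. Satb1 fell by 1.91 on the log2 scale (SE 0.40, adjusted p = 0.00312, edgeR quasi-likelihood test) and Lef1 fell by 2.34 (SE 0.57, adjusted p = 0.0286). Unadjusted p-values under 0.05 were found for 5 of 9 members and for 6.71% of all genes tested, among these members Tcf7 with a log2 fold change of -1.54 (adjusted p = 0.271), Ccr7 with -1.95 (adjusted p = 0.43) and S1pr1 with -1.21 (adjusted p = 0.6). The median log2 fold change of the 9 was -1.21, and that of all genes tested was -0.093. For 6 members every Treg library was below every CD4+ library, which was so for 8.93% of the 8587 genes with a mean of at least 10 CPM. In bulk samples, fewer cells that express a gene and less RNA of it per cell cannot be told apart. The 6 macrophage markers summed to 25.8 to 103 CPM in SP/naive Tregs and to 0 to 3.17 CPM in SP/naive CD4+ T cells, and 1 of them, Lyz2 (lysozyme), was called higher in Tregs in all 4 comparisons with CD4+ T cells. The NK cell markers Ncr1 and Klrb1c summed to 0 to 1.01 CPM in SP/naive Tregs and 17.4 to 51.3 CPM in SP/naive CD4+ T cells. The part of macrophage or NK cell RNA in these differences was not tested. The Satb1 call was lost without SP/naive CD4+ replicate 2 (adjusted p = 0.0929) or SP/naive Treg replicate 3 (adjusted p = 0.0947), and the Lef1 call without SP/naive CD4+ replicate 2 (0.193) or any of SP/naive Treg replicates 1, 2 and 3 (0.165, 0.205 and 0.164), and neither gene was called by the likelihood ratio test or with ComBat-Seq.

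In tolerant mice, Satb1 was lower in both splenic Treg subsets than in CD4+ T cells. It fell by 1.94 (SE 0.40, adjusted p = 0.00177) in SP/CD127-/lo Tregs and fell by 1.72 (SE 0.40, adjusted p = 0.014) in SP/CD127hi Tregs on the log2 scale, by the edgeR quasi-likelihood test. It was 1 of 9 members in each, beside 0.284% and 0.324% of all genes tested, while unadjusted p-values under 0.05 were found for 5 and 4 members, and for 7.2% and 8.25% of all genes tested. Lef1 had log2 fold changes of -1.66 and -1.61 (adjusted p = 0.314 and 0.273), Ccr7 of -1.86 and -2.14 (adjusted p = 0.38 and 0.252) and Tcf7 of -1.19 and -0.97 (adjusted p = 0.435 and 0.585). The medians of the 9 were -1.03 and -0.47, beside 0.0 for all genes tested in both. For 6 members each, every library of the Treg subset was below every CD4+ library, beside 13.6% and 13.8% of the 8587 genes, and Il6ra was the 1 member for which every SP/CD127hi library was above, beside 13.3%. Macrophage markers summed to 7.29 to 299 CPM in SP/CD127-/lo and 121 to 244 CPM in SP/CD127hi Tregs, against 15.4 to 29.1 CPM in SP/tolerant CD4+ T cells. In the same order, T cell markers summed to 7073 to 10588, 4040 to 4768 and 7134 to 8726 CPM, so that SP/CD127hi Tregs lay below the CD4+ T cells without overlap. The 5 B cell markers summed to 23.1 to 42.2, 5.2 to 82.0 and 2.74 to 8.5 CPM. Mitochondrial genes, a sign of RNA and cell quality, held 2.32% to 4.35% and 2.71% to 3.53% of counts in these Tregs and 2.06% to 2.53% in the CD4+ T cells. The part of these values in the differences was not tested. The Satb1 call was lost without SP/CD127-/lo replicate 1 (adjusted p = 0.055) or 2 (0.0596) in the first comparison, and without SP/tolerant CD4+ replicate 1 (0.118) or SP/CD127hi replicate 1 (0.155) or 2 (0.102) in the second, and in both by the likelihood ratio test and with ComBat-Seq.

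In graft Tregs 3 members were lower than in SP/naive CD4+ T cells. The graft came from treated, tolerant mice and these CD4+ T cells from naive mice, so treatment, site and cell type cannot be told apart here, and 8 of 9 members also had lower means in SP/tolerant than in SP/naive CD4+ T cells (median of the 9 log2 fold changes -0.55). Satb1 fell by 2.56 on the log2 scale (SE 0.41, adjusted p = 2.91e-06), Lef1 fell by 2.89 (SE 0.59, adjusted p = 0.000896) and Bach2 fell by 2.34 (SE 0.57, adjusted p = 0.0145). These were 3 of 9 members, beside 0.619% of all genes tested (edgeR quasi-likelihood test), while unadjusted p-values under 0.05 were found for 7 members and 10.5% of all genes. Tcf7 (log2 fold change -1.74, adjusted p = 0.0692) and Foxp1 (-1.34, adjusted p = 0.0714) missed the threshold. The 9 log2 fold changes were all negative, with a median of -1.74, and the median of all genes tested was -0.22. For 7 members every graft library was below every CD4+ library, beside 8.3% of the 8587 genes. The calls of Satb1 and Lef1 held without each library in turn, and that of Bach2 was lost without graft replicate 2 (adjusted p = 0.145) or 3 (0.0581). Graft replicate 2, with its kidney marker sum of 890 CPM and its T cell marker sum of 8875 CPM, was the lowest for all 9 members. The part of kidney RNA in these differences was not tested. Mitochondrial genes held 6.74%, 4.33% and 5.3% of counts in graft Tregs and 2.15%, 2.44% and 3.4% in SP/naive CD4+ T cells, which did not overlap. Macrophage markers summed to 65.8, 0 and 470 CPM in graft Tregs. NK cell markers summed to 0 to 8.04 CPM in graft Tregs and 17.4 to 51.3 CPM in SP/naive CD4+ T cells. The part of these values in the differences was not tested. With ComBat-Seq, Lef1 (adjusted p = 0.0641) and Bach2 (adjusted p = 0.176) were not called.

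**Figure D2:**
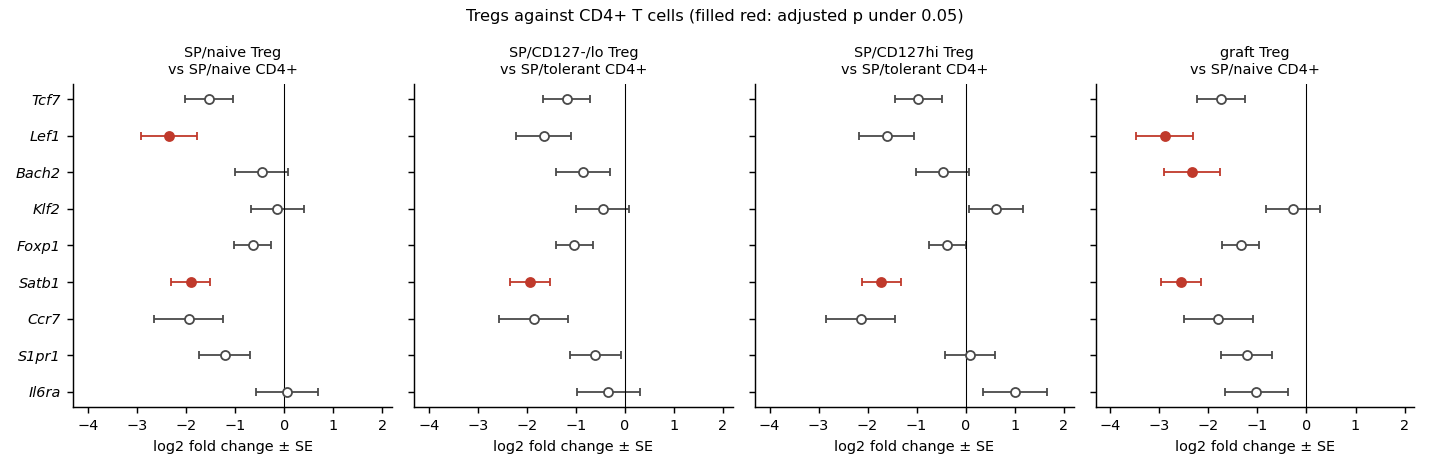
Log2 fold change ± SE of the 9 genes between Tregs and CD4+ T cells in 4 comparisons; filled red points have an adjusted p under 0.05. Satb1 was called in all 4, Lef1 in SP/naive and graft Tregs and Bach2 in graft Tregs.

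Among Treg subsets of spleen and graft, no member passed the threshold. The smallest adjusted p in the 6 comparisons was 0.257, for Bach2 between graft and SP/naive Tregs, with a log2 fold change of -1.88 (SE 0.56, edgeR quasi-likelihood test). The 3 graft libraries (75.6, 42.0 and 69.4 CPM) lay below the 3 SP/naive libraries (324, 237 and 127 CPM), and DESeq2 called this difference (adjusted p = 0.0067). Together with Bach2, Lef1 and Foxp1 had every graft library below every SP/naive library, 3 of 9 members, beside 8.11% of the 8587 genes. Mitochondrial genes held 4.33% to 6.74% of counts in graft against 1.81% to 2.42% in SP/naive, 2.32% to 4.35% in SP/CD127-/lo and 2.71% to 3.53% in SP/CD127hi Tregs. Kidney markers summed to 15.8 to 890 CPM in graft and to at most 4.29 CPM in splenic Tregs, and 1 of them, Kap, was called higher in graft than in each of the 3 splenic Treg groups. Their part in the graft differences was not tested. Id2, an inhibitor of E proteins of the list of effector genes, was called in this comparison, with 1108, 1181 and 388 CPM in graft and 143, 160 and 200 CPM in SP/naive Tregs (log2 fold change 2.41, adjusted p = 0.000532). In graft against SP/naive Tregs 0.13% of all genes were called, and 1 member had an unadjusted p under 0.05, beside 7.93% of all genes.

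Of the 9 members, Il6ra had the largest log2 fold change between SP/CD127hi and SP/CD127-/lo Tregs, with 188, 181 and 287 CPM against 56.8, 96.1 and 106 CPM, which did not overlap. The log2 fold change was 1.34 (SE 0.65, adjusted p = 0.721, edgeR quasi-likelihood test), and by DESeq2 it was not called either. Every Klf2 library of SP/CD127hi Tregs (185, 221 and 398 CPM) was also above every SP/CD127-/lo library (87.9, 163 and 132 CPM), and so was every Foxp1 library (448, 485 and 426 CPM against 214, 324 and 323 CPM). These were 3 of 9 members, beside 10.9% of the 8587 genes. In this comparison 0 of 9 members were called and 1 had an unadjusted p under 0.05, beside 0.0907% of all genes called and 6.74% at that unadjusted p. T cell markers summed to 4040 to 4768 CPM in SP/CD127hi and 7073 to 10588 CPM in SP/CD127-/lo Tregs, and Cd3g and Cd3d, chains of the CD3 complex, were called lower and the B cell gene Ms4a1 higher in SP/CD127hi (adjusted p = 0.0106, 0.00826 and 2.57e-08, edgeR quasi-likelihood test). The 5 B cell markers together summed to 82.0, 5.2 and 81.1 CPM in SP/CD127hi and 33.3, 23.1 and 42.2 CPM in SP/CD127-/lo Tregs, which overlapped. Reads without a gene made up 16.61%, 30.49% and 30.76% in SP/CD127-/lo and 35.79%, 41.87% and 37.86% in SP/CD127hi libraries, so that neither these reads nor the T cell markers overlapped between the groups. SP/CD127-/lo replicate 1, with the least such reads, was the lowest of its group for 8 of 9 members. The part of these values in the differences was not tested.

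Against SP/naive Tregs, the log2 fold change in SP/CD127-/lo Tregs was -1.29 for Bach2 (adjusted p = 0.751, -2.03 without SP/CD127-/lo replicate 2) and -0.94 for Foxp1 (adjusted p = 0.677), and 0 of 9 members were called by the edgeR quasi-likelihood test or DESeq2, with 2 at an unadjusted p under 0.05, beside 0.071% of all genes called and 5.46% at that p. Foxp1 and Il6ra had every SP/CD127-/lo library below every SP/naive library, 2 of 9 members, beside 9.46% of the 8587 genes. T cell markers summed to 7073 to 10588 CPM in SP/CD127-/lo and 3875 to 6671 CPM in SP/naive Tregs. Reads without a gene made up 16.61% to 30.76% and 33.67% to 49.91%. Neither overlapped, and the part of these values in the differences was not tested. Between SP/CD127hi and SP/naive Tregs, 0 of 9 were called and 0 had an unadjusted p under 0.05 (smallest adjusted p = 0.95, 0.0197% of all genes called, 5.09% unadjusted), also with DESeq2 0. Between graft and SP/CD127-/lo Tregs, 0 of 9 were called, 0 had an unadjusted p under 0.05 and DESeq2 called 0 (0.0829% of all genes called, 7.66% unadjusted). Lef1 was the 1 of 9 members with every graft library below every SP/CD127-/lo library, beside 8.0% of the 8587 genes. Between graft and SP/CD127hi Tregs, the log2 fold change of Il6ra was -1.31 (adjusted p = 0.546), with 82.1, 22.2 and 160 CPM against 188, 181 and 287 CPM. It was -0.86 without graft replicate 2 and -2.07 without graft replicate 3. Il6ra, Tcf7 and Bach2 had every graft library below every SP/CD127hi library, 3 of 9 members, beside 8.38% of the 8587 genes. T cell markers summed to 5963 to 8875 CPM in graft and 4040 to 4768 CPM in SP/CD127hi Tregs, which did not overlap. The part of this in the differences was not tested. In this comparison 0 of 9 members were called by either tool and 1 had an unadjusted p under 0.05, beside 0.103% of all genes called and 8.74% at that p. Graft, SP/CD127hi and SP/CD127-/lo Tregs were compared with the same SP/naive libraries, so these comparisons share samples.

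**Figure D3:**
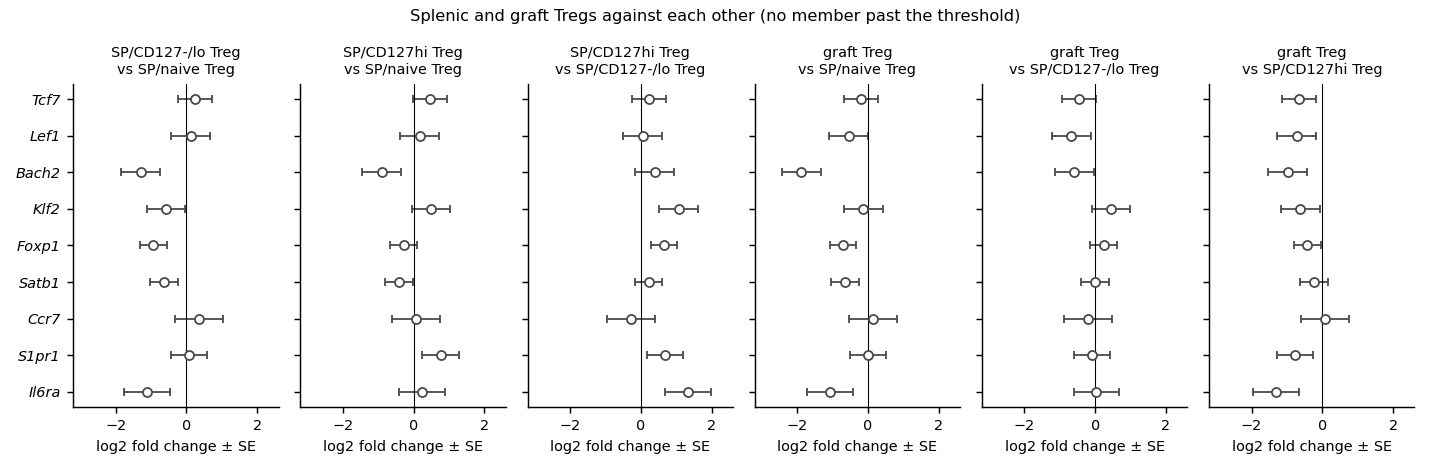
Log2 fold change ± SE of the 9 genes in 6 comparisons among splenic and graft Tregs; no point has an adjusted p under 0.05. Bach2 in graft against SP/naive Tregs (log2 fold change -1.88) is the furthest from 0.

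In the DLN, Bach2 was at 91.5, 43.3 and 39.4 CPM in CD127hi Tregs and at 108, 186 and 132 CPM in naive Tregs, with a log2 fold change of -1.29 (SE 0.56, adjusted p = 0.344, edgeR quasi-likelihood test). The groups did not overlap, which was so for this 1 of 9 members and, in the same direction, for 6.65% of the 8587 genes. Here 0 of 9 members were called by this test or by DESeq2, and 1 had an unadjusted p under 0.05, beside 0.951% of all genes called and 10.6% at that p. Between DLN/CD127-/lo and DLN/naive Tregs, the log2 fold change of Klf2 was -1.29 (adjusted p = 0.46), with 66.0, 85.6 and 5.72 CPM against 141, 132 and 112 CPM. It was -0.70 without DLN/CD127-/lo replicate 3 and -1.84 without replicate 2. Klf2 and Bach2 had every DLN/CD127-/lo library below every DLN/naive library, 2 of 9 members, beside 4.5% of the 8587 genes. In this comparison 0 of 9 members were called by either tool and 1 had an unadjusted p under 0.05, beside 0.355% of all genes called and 8.79% at that p.

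DLN/CD127hi against DLN/CD127-/lo Tregs gave log2 fold changes of 1.29 for Klf2 (adjusted p = 0.425) and 1.09 for Tcf7 (adjusted p = 0.444). The Klf2 values of 132, 115 and 137 CPM in CD127hi Tregs were above those of CD127-/lo Tregs, while the Tcf7 values of 194, 365 and 112 CPM overlapped with 126, 116 and 72.8 CPM. Klf2 was the 1 of 9 members with all DLN/CD127hi libraries above, beside 4.27% of the 8587 genes, and Bach2 the 1 with all below, beside 5.83%. The value of Klf2 was 0.76 without DLN/CD127-/lo replicate 3 and 1.9 without replicate 2, and that of Tcf7 was 0.58 without DLN/CD127hi replicate 2. Here 0 of 9 members were called by the edgeR quasi-likelihood test or DESeq2, with 2 at an unadjusted p under 0.05, beside 0.418% of all genes called and 8.75% at that p. B cell markers (Cd79a, Cd79b, Ms4a1, Pax5 and Ebf1) summed to 164 to 388 CPM in DLN/CD127hi, 78.5 to 128 CPM in DLN/CD127-/lo and 11.9 to 24.2 CPM in DLN/naive Tregs. The 6 macrophage markers summed to 576 to 848, 102 to 718 and 2.8 to 428 CPM in these groups. Cd8a and Cd8b1, which encode the chains of CD8, summed to 186, 1.57 and 120 CPM in DLN/CD127hi, to 10.4, 1.99 and 0 CPM in DLN/CD127-/lo and to 0, 0 and 70.1 CPM in DLN/naive Tregs. In DLN/CD127hi Tregs, Cd8b1 was called higher than in DLN/naive (adjusted p = 7.38e-05) and Cd8a higher than in DLN/CD127-/lo Tregs (adjusted p = 0.013, edgeR quasi-likelihood test). Mitochondrial genes held 1.45% to 2.95% of counts in DLN/CD127hi, 1.15% to 1.25% in DLN/CD127-/lo and 0.98% to 1.37% in DLN/naive Tregs. The part of these values in the differences between DLN groups was not tested. The difference between the CD127hi effect in DLN and in spleen was tested as an interaction. It was called for 0 of 9 members by the edgeR quasi-likelihood test (smallest adjusted p = 0.714, 0 with an unadjusted p under 0.05, 0 by DESeq2), beside 0.118% of all genes called and 7.82% unadjusted. Tissue and sequencer cannot be told apart.

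The same cells were then compared between tolerant and naive mice. Between SP/tolerant and SP/naive CD4+ T cells, 0 of 9 members were called by the edgeR quasi-likelihood test, with 0 at an unadjusted p under 0.05 and 0 by DESeq2, beside 0.107% of all genes called and 7.01% unadjusted. Lef1, Bach2 and Foxp1 had every SP/tolerant library below every SP/naive library, 3 of 9 members, beside 6.86% of the 8587 genes, and Ccr7 was the 1 member with a higher mean in tolerant mice (322 against 268 CPM). Macrophage markers summed to 15.4 to 29.1 CPM in tolerant and 0 to 3.17 CPM in naive mice, and the 2 NK cell markers (Ncr1 and Klrb1c) to 0.258 to 7.72 and 17.4 to 51.3 CPM. The B cell genes Ebf1 and Ms4a1 were called lower in tolerant mice (adjusted p = 2.3e-05 and 0.00173, edgeR quasi-likelihood test). The 5 B cell markers together summed to 4.33, 2.74 and 8.5 CPM in tolerant and 95.8, 48.8 and 0.784 CPM in naive mice, which overlapped. The part of these other cells in the differences was not tested. In CD45+CD4- cells, the log2 fold change of Lef1 was -1.21 (adjusted p = 0.995), with 73.2, 54.4 and 115 CPM in tolerant against 130, 238 and 194 CPM in naive mice. Lef1 was the 1 of 9 members lower without overlap, beside 4.62% of the 8587 genes. Markers of cell types moved with it: T cell markers summed to 862 to 1164 CPM in tolerant and 1487 to 2552 CPM in naive mice, CD8 markers to 225 to 325 and 370 to 760 CPM, and the 5 B cell markers to 3705 to 4961 and 2299 to 3566 CPM, none of which overlapped. Neutrophil markers summed to 344 to 2706 and 34.8 to 583 CPM, which overlapped. Their part in the Lef1 difference was not tested. By the edgeR quasi-likelihood test and by DESeq2 0 of 9 members were called there, with 1 at an unadjusted p under 0.05, beside 0.0355% of all genes called and 4.46% at that p.

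SP/naive CD4+ T cells against SP/naive CD45+CD4- cells gave log2 fold changes of 1.69 for Lef1 (SE 0.56, adjusted p = 0.159), 1.5 for Ccr7 (adjusted p = 0.43) and 0.79 for Satb1 (adjusted p = 0.497). The 3 CD4+ libraries of each were above the 3 CD45+CD4- libraries, and so were those of Tcf7 (608, 643 and 665 against 322, 359 and 427 CPM), which made 4 of 9 members, beside 1031 of the 8587 genes. By the edgeR quasi-likelihood test 0 of 9 members were called, with 3 at an unadjusted p under 0.05, beside 1.04% of all genes called and 9.63% at that p, and DESeq2 called 1, Lef1. Scaling to the total counts in place of TMM shifted the log2 fold changes of this comparison by -0.287 and those of the 15 others by -0.179 to 0.202.

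Other genes of the same biology were followed in lists over the 17 contrasts, which share libraries. Over all genes and contrasts together, 0.295% of tests were called and 7.73% had an unadjusted p under 0.05. Of 9 further homing and egress genes, 0 of 153 tests were called by the edgeR quasi-likelihood test, with 11 at an unadjusted p under 0.05 and 6 by DESeq2. Klf3, a factor of the same family as Klf2, was at 422, 686 and 269 CPM in SP/naive CD4+ T cells and at 334, 149 and 752 CPM in graft Tregs, which overlapped. Of the 4 genes that modulate S1P receptors 0 of 68 tests were called (2 unadjusted, 1 by DESeq2), and Cd69, which removes S1PR1 from the cell surface, was at 145, 414 and 391 CPM in SP/naive CD4+ T cells and at 541, 463 and 292 CPM in graft Tregs. For 12 quiescence genes 0 of 204 tests were called (26 unadjusted, 3 by DESeq2), for 7 tested partners of TCF and LEF 0 of 119 (2 unadjusted, 1 by DESeq2) and for 7 genes of IL-6 receptor signalling 0 of 119 (15 unadjusted, 7 by DESeq2).

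Of 9 other naive T cell markers, 9 of 153 tests were called. Il7r, the gene of the sort marker, is in this list and gave 2 of them, in SP/CD127-/lo against SP/tolerant CD4+ and in SP/CD127hi against SP/CD127-/lo cells, which the sort fixed. Without it 7 of 136 tests were called, and Dapl1 was lower in Tregs than in CD4+ T cells in all 4 comparisons. It was at 809, 1241 and 680 CPM in SP/naive CD4+ T cells, at 36.1, 49.4 and 24.5 CPM in SP/naive Tregs and at 3.02 to 46.5 CPM in graft Tregs (log2 fold changes -4.63 and -5.32, adjusted p = 2.01e-06 and 3.04e-08). Igfbp4 was lower in graft Tregs (0.812, 6.59 and 0.596 CPM) than in SP/naive CD4+ T cells (146, 112 and 148 CPM, adjusted p = 0.0209). Of 12 effector genes, 22 of 204 tests were called, not all in 1 direction. Maf was higher in SP/CD127-/lo, SP/CD127hi and graft Tregs than in CD4+ T cells (log2 fold changes 1.83, 1.73 and 1.99, adjusted p = 0.0161, 0.0327 and 0.00375). Id2 was lower in SP/CD127-/lo Tregs (297, 226 and 217 CPM) than in SP/tolerant CD4+ T cells (955, 800 and 808 CPM, log2 fold change -1.79, adjusted p = 0.0274). Itgae, which encodes CD103, was at 112, 178 and 134 CPM in graft Tregs and at 0, 0.95 and 0.392 CPM in SP/naive CD4+ T cells, and Klrg1 at 168, 32.7 and 206 CPM and at 0, 0.633 and 0 CPM.

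As a description over the 24 spleen and graft libraries, which share a sequencer and span CD45+CD4- cells, CD4+ T cells and Tregs, so that differences between cell types enter, the 36 pairs of the 9 genes had Pearson correlations of log2 CPM of 0.033 to 0.9, with a median of 0.547. The highest were Bach2 with Foxp1 (0.9) and Tcf7 with Lef1 (0.895), and the lowest was Lef1 with Klf2. Over the 12 Treg libraries alone they were 0.156 to 0.845. Among 8626 genes, the 3 most alike to Satb1 were Dapl1 (0.919), Rasgrp2 (0.889) and Ugcg (0.878), and those most alike to Foxp1 were Rasgrp2 (0.902), Bach2 (0.9) and Lcn4 (0.859). For Tcf7 they were Lef1, Dapl1 (0.843) and Cnga1 (0.84), for Lef1 they included Tcf7 and 2810001G20Rik (0.856), and for Bach2 Foxp1, Lcn4 (0.839) and Lmo4 (0.811). Klf2 was most alike to Map3k1 (0.818), Ttyh3 (0.81) and Ddi2 (0.791), Ccr7 to Gtf2i (0.868), Pdk1 (0.835) and Als2cl (0.825), S1pr1 to Ikzf1 (0.814), Rasgrp2 (0.794) and Vipr1 (0.758), and Il6ra to Klf3 (0.785), Slc35a2 (0.77) and Git1 (0.765).

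**Figure D4:**
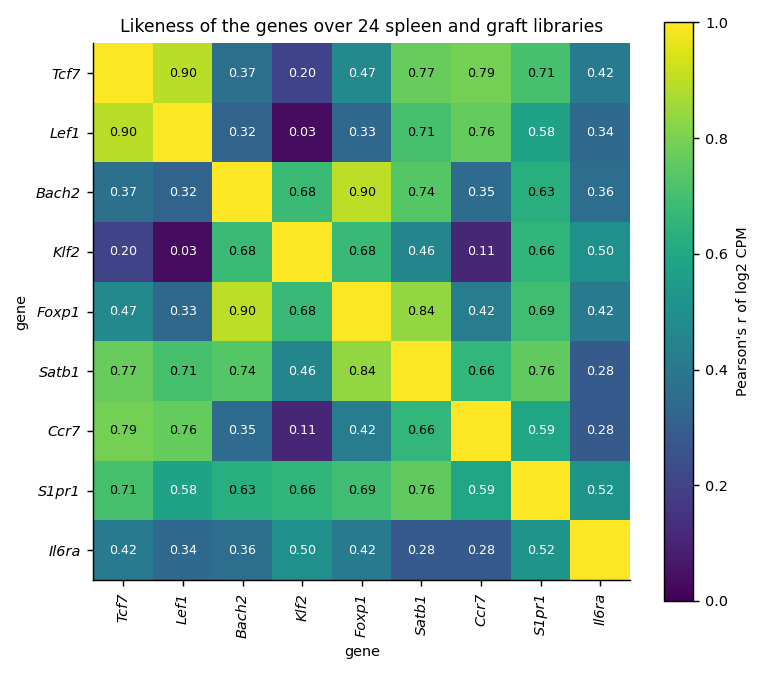
Pearson correlation of log2 CPM of each pair of the 9 genes over 24 spleen and graft libraries. All 36 pairs were positive, from 0.033 for Lef1 and Klf2 to 0.9 for Bach2 and Foxp1.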

How the data were processed

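RNA-Seq of 33 libraries was analysed from counts. The authors made the libraries with SMART-Seq v4 and Nextera XT, checked and trimmed the reads (FastQC, Trim Galore), used STAR for alignment against mm10 plus an EGFP sequence, and deposited raw counts of reads per gene, without normalization. The methods name HTSeq, whereas the layout is that of the gene count output of STAR, and its unstranded column was used. Reads without a gene (16.61% to 60.37%) were left out. The filter kept 25347 of 31054 genes, those reaching 1 CPM in 1 or more libraries. Counts were fitted in R 4.3.3 with edgeR 4.0.16 (TMM, 1 mean per group over all libraries, quasi-likelihood test, Benjamini-Hochberg adjustment over all genes tested, threshold 0.05). DESeq2 1.42.0, sva 3.50.0 (ComBat-Seq) and limma 3.58.1 served the alternatives, and Python 3.11.15 with numpy 2.4.6, pandas 2.3.3 and matplotlib 3.10.9 the tables and figures. Fits were tested on simulated data. The groups were taken from the labels. Genes named are the 9 members in every comparison, called genes of the lists with up to 3 examples, the 3 genes most alike, and Foxp3, Il7r and Xist as checks. The members and lists were chosen with earlier results of these data known. Genes of 2 lists and 1 of the genes most alike are not reported here.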

Additional observations from a re-analysis of the deposited data

How the results depend on the processing

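The 7 called differences kept their direction in every refit, and 13 of 42 refits without a library and 10 of 56 other refits ended a call. Of 27 others with an unadjusted p under 0.05, 16 of 216 refits made a call. Without 1 library each, members called were 0 to 2 for SP/naive Tregs and 0 to 1 for SP/CD127-/lo and SP/CD127hi Tregs against CD4+ T cells, 2 to 3 for graft Tregs against CD4+ T cells, and 0 to 0 in every other comparison. The likelihood ratio test called 0, 0 and 0 members in the first 3 comparisons and ComBat-Seq 0, 0 and 0. A fit of the compared libraries only called 4, 4 and 3, and 1 for CD4+ T cells against CD45+CD4- cells. DESeq2 called 2 in SP/CD127-/lo and 2 in SP/CD127hi Tregs, 5 in graft Tregs against CD4+ T cells, 1 in graft against SP/naive Tregs and 1 for CD4+ T cells against CD45+CD4- cells. RLE factors and both other filters changed no count by over 1.5 times. Scaled to library totals, 93 of 99 group means moved by less than their SD. The causes were not tested.

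Libraries of different groups may come from the same mice, and the labels do not say which. Deviations from the group means had correlations of -0.174 to 0.282 between libraries of the same replicate number. With 3 libraries per group this cannot decide whether the libraries are paired. The fit with the replicate block called 2, 1, 1 and 3 members in the 4 comparisons with CD4+ T cells. Every sample correlated best with its own number in 3 of 16 comparisons.

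Of 119 differences with larger p, 87 of 768 refits without a library and 21 of 952 other refits changed sign, and none was called.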
